A study of Mus musculus with 46 samples.

Results

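The 100 genes described here were on in mouse embryonic stem cells and stood furthest from the stem cell level when fibroblasts had been reprogrammed with Oct4 and NanogBiD for 12 days. Candidates were the 493 of 37108 genes in the gene table with at least 5 FPKM in mES and under 1 FPKM in each of the 2 MEF libraries. For every candidate the mean log2(FPKM + 1) of the 2 NanogBiD libraries of D12 was divided by that of mES, and the 100 candidates with the lowest share are the members. FPKM divides the fragments of a gene by its length and by the size of the library. The members were thus chosen by their values in mES, MEF and NanogBiD at D12, which are given as a description without a test.

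Mouse embryonic fibroblasts (MEF) were from embryos of male OG2 mice, which carry an Oct4-GFP reporter, crossed to wild-type females of another strain. They were infected with retroviruses for Oct4 plus a form of Nanog. NanogBiD (NanogN70 in the labels) is Nanog with the N-terminal 70 residues of SS18, a BAF subunit that binds BRG1, at its N-terminus. NanogWT is native Nanog. Each combination was sequenced on 8 days from D0 to D12 with 2 libraries a day, except for 1 library of NanogBiD at D8, and D0 already follows the infections. The medium, iCD3, was changed to N2B27 with 2i and LIF at about D7. The 12 iPSC samples were kept in N2B27 with 2i and LIF without feeders: BiD iPSC1 samples 4, 8 and 9, BiD iPSC2 samples 1, 2 and 3, WT iPSC1 samples 1, 1-2, 2 and 3, and WT iPSC2 samples 5 and 6. The mES reference, from embryos of OG2 mice and grown in the same medium, is 1 library and has no replicate. The paper names no cross to the other strain for it, and by the file headers it was at a later passage than the iPSCs. Differences of strain and passage may thus enter every share of the mES level, and their part was not tested. Retroviral infection gives a mixed culture, so each time-course library pools cells at different stages, and fewer cells that express a gene cannot be told apart from less RNA in each of them. Nothing in the labels states separate embryos or cultures for same-day libraries, so p-values measure the spread between these libraries, which may be technical.

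Naive mouse stem cells in 2i and LIF express a core of transcription factors, such as Esrrb, Zfp42 and Tfcp2l1, that keep the pluripotent state. Their hypomethylated genome also transcribes genes whose known roles lie elsewhere, among them genes of germ cells, of the early embryo, of the liver and of T cells. During reprogramming fibroblast genes are silenced and genes of the stem cell are switched on over days rather than all at once.

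None of the 30 candidates on a list of 41 naive and general pluripotency genes was a member. Esrrb, Zfp42, Tfcp2l1, Nanog, Sall4, Dppa5a and the rest of them stood among the 393 other candidates. The Nanog row takes in the retroviral copies, so its place there says nothing about the cell's own Nanog gene. Of 91 germline and meiosis genes, 11 were candidates and 1, Fkbp6, was a member. The list of 46 X-linked germline cluster genes gave 6 candidates and 2 members, Xlr4a and Xlr5a. A list of 61 genes headed 2-cell stage gave 3 candidates and 2 members, Pramel6 and Pramel7. Neither Pramel gene was on the list of pluripotency genes, so the count for that list does not cover them. No gene of the lists for primed and early lineages (8 candidates) or for transposon and imprint control (6 candidates) was a member, and no Y-linked gene was a candidate.

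By gene type 82 members were protein coding, 12 were lncRNAs, 4 were miRNA rows, 1 was a snoRNA and 1 had no match in RefSeq. Several rows describe the same transcript under 2 symbols (Mymx and Gm7325, Misp3 and 2210011C24Rik, H4c4 and Hist1h4d) or overlap (Apoc2 with Apoc4-apoc2 and Gm44805, Mir1199 with Misp3), and BC021614 and Gstp3 were joined because their values moved together over the 34 samples. Joining these rows leaves 93 loci. The median mES level of the members was 7.65 FPKM, within a range of 5.02 to 63.2, and that of the other candidates was 10.4, with a highest value of 2396. Fam25c, a small gene of unknown function, was the highest with 63.2 FPKM. It was followed by Mymx, which encodes the muscle fusion peptide myomixer, with 56.1, the Mir147 row with 46.2, Misp3 with 33.0 and Palm3, a paralemmin, with 25.6. Hsf2bp, a partner of BRCA2 in meiotic recombination, had 21.0, the cytochrome P450 gene Cyp2s1 had 19.4, Bhmt, which remethylates homocysteine from betaine, had 18.9 and C130074G19Rik had 18.3 FPKM.

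In the mm10 genome 22 members lay within 200 kb of a member of another locus, a count with no test. Chromosome 6 held 12 members and 19 of the other candidates, and chromosome X held 4 and 21. Bhmt (chr13:93616891-93637758), Bhmt2 (chr13:93656097-93674302) and Dmgdh (chr13:93674436-93752823), 3 enzymes of betaine and methyl group metabolism, are neighbours. Pramel7 (chr2:87489088-87492418) and Pramel6 (chr2:87506565-87510865), leucine-rich repeat proteins of the PRAME family, lie side by side, as do Cd3g (chr9:44969572-44980431) and Cd3e (chr9:44998735-45009663), which encode chains of the T cell receptor complex. Xlr4a (chrX:73074343-73082527) and Xlr5a (chrX:73107621-73118717) belong to a multicopy family whose copies can share reads, which makes their values uncertain. Palm3, Misp3, Mir1199 and the peptide hormone gene Rln3 lie within one stretch of chromosome 8. Acrbp, Lpar5 and Pianp form a group on chromosome 6, and M1ap, Tlx2 and Slc4a5 form another there. Mir6409 and Gm867 are neighbours on chromosome 10.

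Promoter sequence is shown for members whose iPSC values are described further on, so that related and unrelated starts can be compared. RefSeq promoters (GRCm38.p6, the 250 bases before to 50 after the start listed first) were matched for 79 member genes. The lines give the 250 bases before the start, 5′ to 3′ on the strand of the gene, with letters of a searched motif in capitals. Pramel30 is the gene named Gm13128 in the files.
Pramel7 (chr2:87492419-87492668, minus strand): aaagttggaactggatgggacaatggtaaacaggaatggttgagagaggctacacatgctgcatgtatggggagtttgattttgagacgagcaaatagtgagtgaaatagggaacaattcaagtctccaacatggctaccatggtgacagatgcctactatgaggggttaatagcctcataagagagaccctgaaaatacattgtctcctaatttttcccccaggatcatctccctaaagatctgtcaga
Pramel30 (chr4:144329999-144330248, plus strand): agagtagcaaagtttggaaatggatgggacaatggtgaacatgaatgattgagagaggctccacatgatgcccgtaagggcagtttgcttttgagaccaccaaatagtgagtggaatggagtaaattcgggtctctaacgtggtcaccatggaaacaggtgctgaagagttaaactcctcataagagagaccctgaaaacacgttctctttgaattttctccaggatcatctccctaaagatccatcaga
Fkbp6 (chr5:135350045-135350294, minus strand): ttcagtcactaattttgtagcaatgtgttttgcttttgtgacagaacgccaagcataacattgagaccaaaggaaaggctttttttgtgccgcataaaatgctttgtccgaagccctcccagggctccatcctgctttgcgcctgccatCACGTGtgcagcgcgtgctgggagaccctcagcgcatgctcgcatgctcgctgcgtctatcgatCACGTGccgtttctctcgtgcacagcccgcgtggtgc
Hsf2bp (chr17:32034509-32034758, minus strand): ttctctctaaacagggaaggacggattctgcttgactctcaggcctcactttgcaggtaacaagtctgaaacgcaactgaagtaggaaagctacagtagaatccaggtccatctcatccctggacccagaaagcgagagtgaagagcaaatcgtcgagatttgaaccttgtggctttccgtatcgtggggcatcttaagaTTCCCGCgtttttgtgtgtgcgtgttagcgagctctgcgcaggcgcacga
Gm364 (chrX:57408899-57409148, plus strand): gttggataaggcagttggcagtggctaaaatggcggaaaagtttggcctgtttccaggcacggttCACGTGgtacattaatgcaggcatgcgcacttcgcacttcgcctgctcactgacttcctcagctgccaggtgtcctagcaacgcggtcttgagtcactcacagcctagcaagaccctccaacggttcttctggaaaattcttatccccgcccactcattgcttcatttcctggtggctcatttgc

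Pramel7 and Pramel30, on different chromosomes, shared 201 of 259 aligned positions (77.6%) and held none of the motifs searched in the stretch printed. Fkbp6, an immunophilin of the piRNA pathway, held CACGTG at 101 and at 37 bases before its start, and Gm364 held it at 185 bases. The window of 300 bases of Gm364 also held 1 TGCAAAT, which does not lie whole in the stretch printed and is not in capitals. Hsf2bp held GCGGGAA on the opposite strand at 50 bases before its start. Over the windows of 300 bases and both strands, CACGTG was found in 5 of 79 members (6.33%), against 7.24% of all 27025 promoters. GCGGGAA was found in 4 members (5.06% against 4.66%), TGCAAAT in 5 (6.33% against 3.98%) and CCAAT in 29 (36.7% against 37.9%). TATAAA was found in 13 members (16.5%), in 16 of the 271 matched other candidates (5.90%) and in 14.2% of all promoters. The observed over expected CpG ratio was at least 0.6 in 22 members (27.8%), in 132 other candidates (48.7%) and in 36.5% of all promoters. Median GC content was 56.0% in the members, 59.0% in the other candidates and 52.7% over all promoters. No motif searched is part of another, CACGTG reads alike on both strands, and these counts describe letters in a window and were not tested.

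The Mir147 row needs its host gene beside it, and its mature strand is shown for that reason with the seed (bases 2 to 8) in capitals.
mmu-miR-147-5p (chr2:122640814-122640837, plus strand): uGGAAACAuuucugcacaaacuag

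The hairpin (chr2:122640803-122640881) lies within AA467197 (chr2:122637887-122641076), a candidate that missed membership with 51.6% of the mES level, whereas Mir147 had 43.8%. The NanogBiD D10 libraries had 8.53 and 6.00 FPKM for Mir147 and 7.80 and 3.76 FPKM for AA467197, and mES had 46.2 and 37.3. In the transcript table mES had 0.05 FPKM for Mir147 and 28.1 for AA467197. Reads of the hairpin and of its host cannot be told apart in these mRNA libraries, and Mir147 is kept below under its row name only. Another 8 members overlap, over at least part of their length, a gene with a higher mES level, so some of their reads may be uncertain. They are Snord98 with Ccar1, Mir7677 with Itpr3, Nefh with Ap1b1, Gm41458 with Morc1, Gm41702 with Gnpda1, Fam78a with Nup214, Pianp with Cops7a and Gm867 with Chchd10. How far each overlap extends was not measured.

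At D12 with NanogBiD the members lay between 0% and 50.1% of the mES level, with a median of 38.7%, and the median of the other candidates was 79.7%. In FPKM, 49 members had at least 1 in both D12 libraries and 27 were below 1 in both. The 3 members just inside the limit were LOC102633190 (49.0%), Fam25c (49.9%) and LOC108168162 (50.1%), and the 3 candidates just outside were LOC108169093 (50.3%), Acacb (50.3%) and Mir6975 (50.4%). The 6 members with the lowest share were LOC108167978, Mir6409 and Snord98, all listed at 0 in both D12 libraries, then Myl7, the atrial myosin light chain (3.16%), Apoc2, the cofactor of lipoprotein lipase (4.19%), and Apoc4-apoc2 (4.70%). Replicate 1 of D12 was above replicate 2 for 80 members, as it was for 79.6% of the other candidates. Summed over 10 pluripotent markers without Pou5f1 and Nanog, whose rows take in the retroviral copies, replicate 1 had 2244 FPKM, replicate 2 had 1256 and mES had 3735. Summed neural markers were 408 FPKM in replicate 1, 571 in replicate 2 and 26 in mES. Summed fibroblast markers were 318, 469 and 11.6 FPKM. The part of other cells in the member values was not tested.

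**Figure D1:**
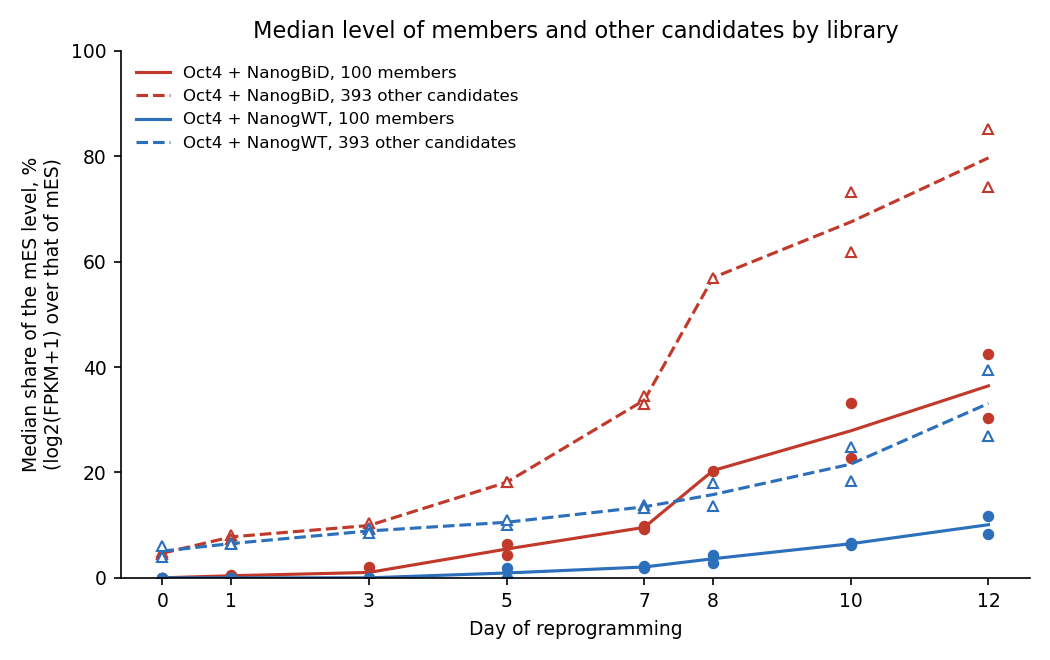
Median share of the mES level (y axis, percent of log2(FPKM + 1)) of the 100 members (filled circles, solid lines) and the 393 other candidates (open triangles, dashed lines) against the day of reprogramming. Each point is 1 library, lines join the means of the libraries, red is NanogBiD and blue NanogWT; members lie below the other candidates on every day of each combination, by choice at D12 of NanogBiD.

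The members lay below the other candidates before D12 as well. At D10 with NanogBiD their median share of the mES level was 28.1%, against 67.0% for the other candidates. With NanogBiD the group mean reached 1 FPKM for 3 members at D0, 7 at D3, 14 at D5, 22 at D7, 38 at D8, 42 at D10 and 66 at D12. With NanogWT the number was 6 at D0, 13 at D5, 10 at D7, 13 at D8, 10 at D10 and 9 at D12. The median share of the mES level with NanogWT at D12 was 11.0%, and that of the other candidates there was 33.1%. For 12 members the D12 mean with NanogWT was above that with NanogBiD.

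A total of 70 members, from 66 loci, had at least 1 FPKM in at least 2 of the 31 time-course libraries and were tested, while the other 30 stayed below that filter. Among the latter were Pramel6, Xlr4a, Xlr5a, Bhmt, Apoc2, Mir6409 and LOC108167978. A gene was called where limma gave a p under 0.05 after Benjamini-Hochberg adjustment over all 16842 genes tested and the log2 difference was at least 1. Differences are on the log2(FPKM + 1) scale, which understates changes of low genes. The depth of each library relative to the median library was read from the steps between its low FPKM values. It was 1.85 to 3.18 for NanogWT from D8 on and 0.81 to 1.02 for NanogBiD on those days, so from D8 depth and combination cannot be told apart.

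From D0 to D10 with NanogBiD 29 members from 27 loci rose, against 21.6% of all genes tested, and 1 fell, against 9.84% of all genes. These shares of all genes are a background only. Members were chosen to be low in MEF and high in mES, which left little room for a fall, and many passed the filter through late NanogBiD libraries: filtered on the libraries of D0 and D10 alone, 29 members were tested. Nothing is read from the count, and the values of single genes are given. Fam25c was at 0 in both D0 libraries and at 5.69 and 2.40 FPKM at D10, a log2 difference of 2.25 ± 0.25 (SE, limma, adjusted p = 3.1e-07). Mymx went from 0 in both libraries to 4.42 and 2.57 FPKM (log2 difference 2.14 ± 0.18, limma, adjusted p = 8.4e-09). The tight junction gene Cldn7 went from 0 to 4.82 and 2.47 FPKM (2.17 ± 0.20, limma, adjusted p = 2.1e-08). The values of these 3 genes at D10 lay above every D0 library and below the mES level. Mir147 had the largest difference, 3.03 ± 0.62 (limma, adjusted p = 0.00035). Khdc3 (Filia), a member of the subcortical maternal complex, rose to 1.96 and 1.22 FPKM from 0 (1.36 ± 0.12, limma, adjusted p = 8.2e-09), and M1ap, required for male meiosis, rose to 1.78 and 1.70 from 0 (1.45 ± 0.13, limma, adjusted p = 1.2e-08). Pycard, the inflammasome adaptor ASC, rose by 1.40, Palm3 by 1.30, Dmgdh by 1.32 and Gm13128 by 1.14 on the log2 scale. The homeobox gene Hoxc13 fell, from 1.57 and 3.58 FPKM at D0 to 0.50 and 0.22 at D10 (log2 difference -1.34 ± 0.29, limma, adjusted p = 0.00053). With quantile normalization, which moved the median of all genes from 0.31 to 0.01, 14 members rose and 3 fell. Hoxc13 lost its call without replicate 2 of D0 (log2 difference -0.92).

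With NanogWT, D12 was compared with D0. There 5 members rose against 12.2% of all genes tested and 3 rows from 2 loci fell against 3.95% of all genes. Atp2a3, the SERCA3 calcium pump, went from 0.18 and 0.04 FPKM at D0 through 5.49 and 8.83 at D8 to 2.24 and 2.07 at D12 (log2 difference 1.51 ± 0.22, limma, adjusted p = 2.2e-05). Its NanogBiD libraries of D8 to D12 had 0.96 to 2.50 FPKM. The other 4 were the lncRNA Gm10451 (1.45 ± 0.30), the homeobox gene En2 (1.34 ± 0.18), Klf15, a Krüppel-like factor (1.25 ± 0.21), and Fam25c (1.00 ± 0.25). Klf15 had 2.74 and 1.59 FPKM at D12 with NanogWT and 2.69 and 1.57 with NanogBiD, and En2 had 1.87 and 1.22 against 1.87 and 1.21, so the values of the 2 combinations overlapped for both genes. Hoxc13 fell with NanogWT too, from 2.55 and 2.86 to 0.58 and 0.53 FPKM (-1.25 ± 0.29, limma, adjusted p = 0.0019). Hist1h4d, a histone H4 gene whose near-identical copies can share reads, fell from 1.47 and 1.72 to 0.05 and 0 FPKM (-1.34 ± 0.28). With quantile normalization 3 members rose and 5 fell, and with values rescaled to TPM 22 rose and 3 fell. Klf15 lost its call without replicate 1 of D12 (0.98) and Fam25c without replicate 2 (0.84).

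Some members had their highest level with NanogBiD in the middle of the course. Choosing members for low D12 values favours such a pattern, so the counts are a description and support nothing. For 38 members the highest group mean of NanogBiD was listed before D12, for 19 of them in the single library of D8. The 38 include Mir6409, which was at 0 in every NanogBiD library and so had no peak. In 17 members the highest mean was at least 1 FPKM and at least 2 times the D12 mean. Nkx1-2, a homeobox gene of the posterior epiblast (chr7:132596239-132599637), was at 0 with NanogBiD at D0, reached 4.39 and 5.68 FPKM at D5, 38.9 and 32.5 at D7 and 19.4 at D8, and was back at 1.04 and 1.30 at D12. Its mES level was 5.83, so the D7 and D8 libraries stood above it and the D12 libraries below. With NanogWT it stayed at or below 0.885 FPKM from D5 on. Slc30a2, a zinc transporter, peaked at 8.33 FPKM at D8 and had 1.41 and 1.56 at D12. Grhl3, a transcription factor of surface epithelium, had 10.5 FPKM at D8 and 3.61 and 2.45 at D12. Lad1, a basement membrane anchor protein, had 4.11 at D8 and 0.87 and 0.32 at D12. The secreted peptide gene Tafa4 was highest at D7 with 9.20 and 8.77 FPKM and had 0.24 and 0.76 at D12. Its mES level was 5.49, so its D7 libraries stood above it, as did those of D5 with 8.91 and 8.39. In NanogWT Tafa4 also peaked at D7, with 4.02 and 5.17, below the mES level.

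**Figure D2:**
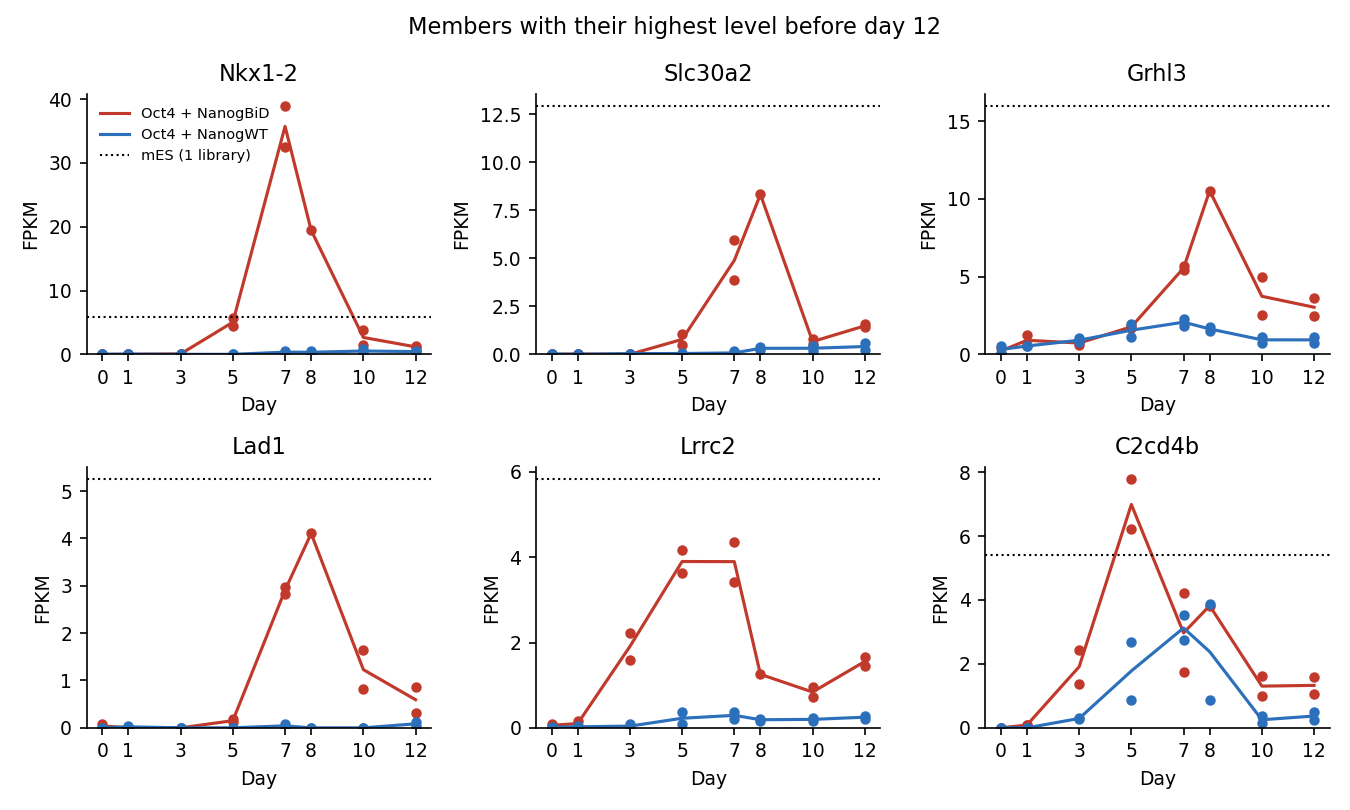
FPKM (y axis, linear) against day for 6 members chosen after their values were seen, with 1 point per library, lines through the group means and the mES level as a dotted line (NanogBiD red, NanogWT blue). Nkx1-2 rises above its mES level at D7 and D8, C2cd4b at D5, and the other 4 genes stay below theirs.

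At D5 limma called 5 members higher with NanogBiD than with NanogWT (3.2% of all genes tested) and 0 lower (3.28% of all genes). In either direction 6.48% of all genes were called. An unadjusted p under 0.05 in limma was found for 20 of 70 members and for 4911 of all 16842 genes. Many members passed the filter through late NanogBiD libraries, so nothing is read from the counts at D5, D7 and D10. The 5 called were Nkx1-2 (log2 difference 2.59 ± 0.23, limma, adjusted p = 2.1e-07), Lrrc2 (2.01 ± 0.14, limma, adjusted p = 1.1e-08), C2cd4b (1.60 ± 0.36), Gm41702 (1.15 ± 0.25) and Tafa4 (1.05 ± 0.25). Lrrc2, which encodes a leucine-rich repeat protein, had 3.64 and 4.16 FPKM with NanogBiD and 0.09 and 0.36 with NanogWT. C2cd4b had 6.20 and 7.77 FPKM against 0.88 and 2.68, and the 2 combinations did not overlap for either gene. Leaving out replicate 2 of NanogBiD at D5 gave 6 higher and 3 lower, quantile normalization 4 and 3, and rescaling to TPM 12 and 3. C2cd4b and Tafa4 lost their calls without replicate 1 of NanogWT at D5 (log2 differences 1.11 and 0.96), and Tafa4 also without replicate 1 of NanogBiD (1.01).

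At D7 11 members from 10 loci were higher with NanogBiD (5.79% of all genes tested) and 1 was lower (4.65%). Nkx1-2 had 38.9 and 32.5 FPKM against 0.46 and 0.22 (log2 difference 4.78 ± 0.23, limma, adjusted p = 3.9e-11). Slc30a2 had 5.93 and 3.85 FPKM against 0.15 and 0 (2.44 ± 0.17, limma, adjusted p = 3.9e-09). Lrrc2 (1.92 ± 0.14), Lad1 (1.91 ± 0.15) and Mymx (1.35 ± 0.18) followed, and Cldn7, Grhl3, M1ap, Kcnj12 and Myl7 were higher by 1.09 to 1.22. Lpar5, a receptor of lysophosphatidic acid, was lower, with 0.46 and 0.18 FPKM against 2.46 and 1.64 (-1.20 ± 0.15, limma, adjusted p = 6.0e-06). Depth did not separate the combinations at D5 and D7: libraries of D0 to D7 had relative depths of 0.997 to 1.10 with NanogBiD and 0.872 to 1.06 with NanogWT.

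At D10 20 members from 18 loci were higher with NanogBiD (15.4% of all genes tested) and 0 were lower (12.3%). An unadjusted p under 0.05 in limma was found for 50 of 70 members and for 10068 of all 16842 genes. Many members passed the filter through late NanogBiD libraries, among them those of D12 that the rule used. Filtered on the D10 libraries alone, 31 members were tested, and 17 were higher and 0 lower. Nothing is read from these counts. The largest differences were those of Mir147 (2.04 ± 0.62, limma, adjusted p = 0.0092), Fam25c (1.84 ± 0.25, limma, adjusted p = 4.5e-06), Cldn7 (1.63 ± 0.20, limma, adjusted p = 1.1e-06) and Mymx (1.43 ± 0.18, limma, adjusted p = 1.8e-06). Fam25c had 5.69 and 2.40 FPKM with NanogBiD and 0.18 and 0.49 with NanogWT. Cldn7 had 4.82 and 2.47 against 0.76 and 0.21, and Mymx 4.42 and 2.57 against 0.72 and 0.56. The combinations did not overlap for these 3 genes. Mir147 lost its call without replicate 1 of NanogBiD (log2 difference 1.82) and without replicate 1 of NanogWT (1.56). Replicate 1 of NanogBiD carried much of the count: 8 members were called without it and 32 without replicate 2, and 76 members were higher in replicate 1. Summed pluripotent markers without Pou5f1 and Nanog were 1229 FPKM in replicate 1 and 749 in replicate 2, against 42.8 and 98.2 in NanogWT. The 12 fibroblast markers, all above 0 in both combinations and 5 of them at 0 in mES, summed to 605 and 489 FPKM with NanogBiD, 3713 and 3578 with NanogWT and 11.6 in mES. Their part in the result was not tested.

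**Figure D3:**
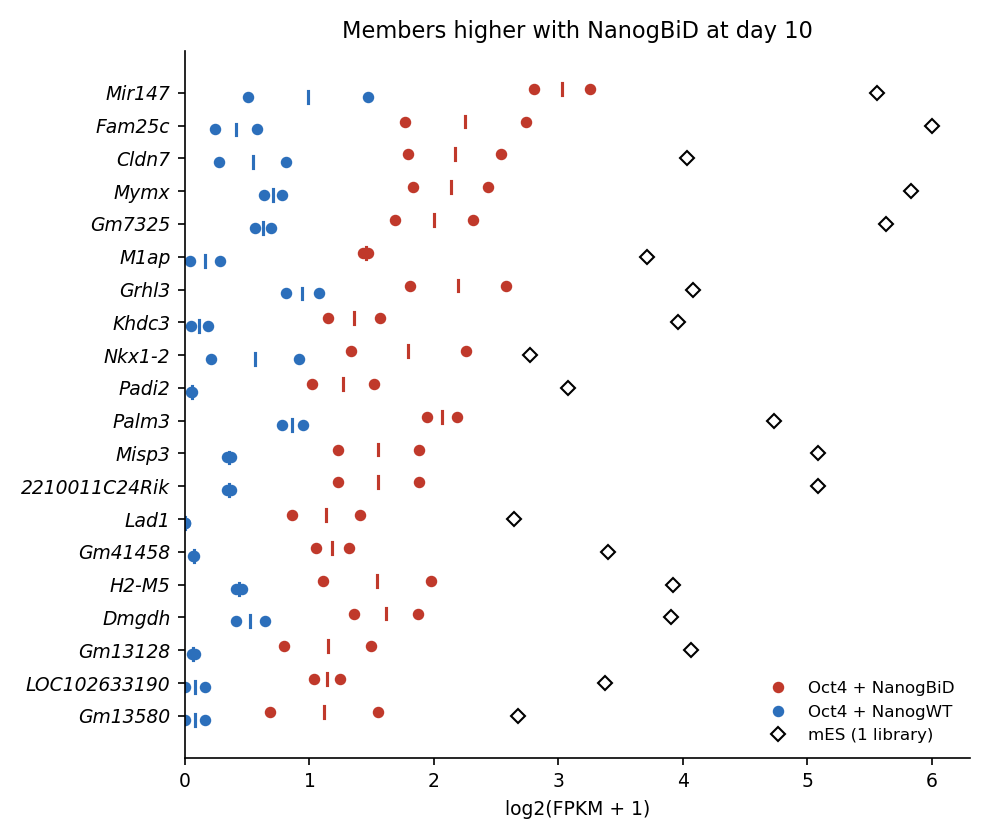
Level at D10 (x axis, log2(FPKM + 1)) of the 20 members called higher with NanogBiD, ordered by the difference. Red and blue points are the 2 libraries of NanogBiD and NanogWT, ticks their means and open diamonds the single mES library, which lies to the right of both combinations for all 20 members.

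The question whether the members are on in iPSCs was taken to the transcript table of MEF, iPSC and mES, where transcripts were summed by symbol and 99 of the 100 members were found. The mean of the 12 iPSC samples was at least 1 FPKM for 84 of them (84.8%), against 371 of 390 matched other candidates (95.1%) and 31.9% of all 35976 symbols. Of the 8045 symbols with at least 5 FPKM in mES there, a closer background, 8028 (99.8%) had such a mean. Of the members 54 had at least 1 FPKM in all 12 samples, 38 in some and 7 in none. For 10 members mES itself was below 1 FPKM in this table, among them Mir147, Mir6409, Mir7677, Snord98, Gm867, Gm38958, Gm41702 and the Apoc4-apoc2 rows, and their share cannot be given. Of the 89 with an mES value of at least 1, 83 (93.3%) were on, against 98.1% of 376 other candidates. They reached a median of 74.6% of the mES level in iPSCs, within a range of 7.40% to 130%, and for 83 of them the iPSC share was above the D12 share, whose median was 39.5%. The D12 share was chosen to be low, so a second measure is favoured to lie above it. The other candidates had a median of 91.6%, and 247 of the 376 were above their D12 share. The iPSC value was at or above mES for 19 members and below 50% for 18.

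**Figure D4:**
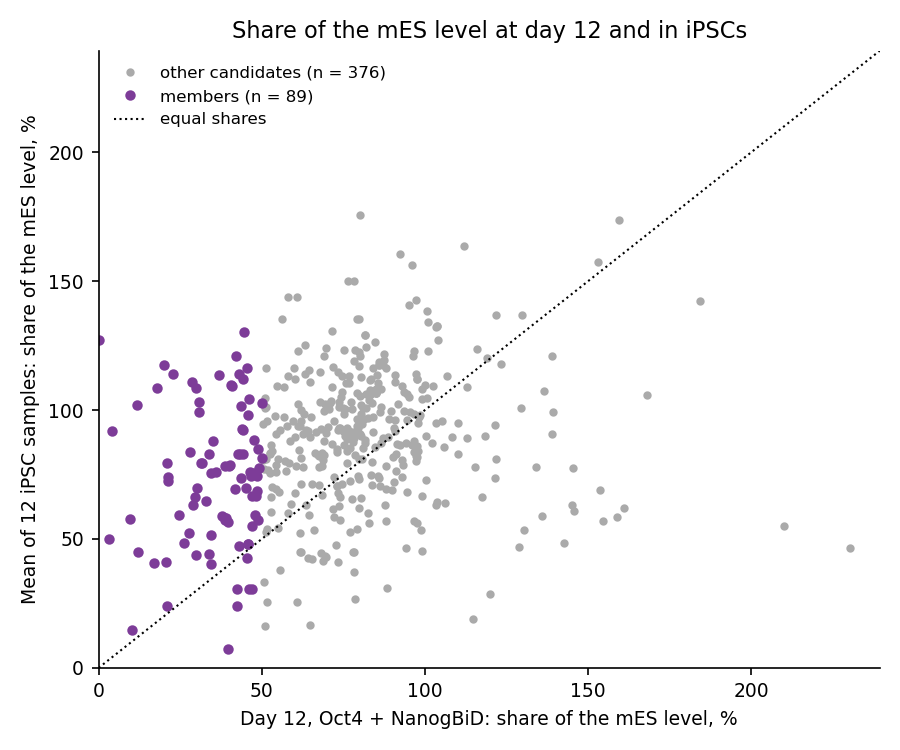
Share of the mES level as the mean of 12 iPSC samples (y axis, percent) against the share at D12 with NanogBiD (x axis, percent) for 89 members (purple) and 376 other candidates (grey). Members lie left of 50.1% by choice, and 83 of 89 lie above the dotted line of equal shares, as do 247 of the 376 other candidates.

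The highest iPSC shares belonged to Pramel7 (130%), LOC108167978 (127%), Gpx2, a glutathione peroxidase (121%), Pgc, the precursor of pepsin C (117%), Serpinb6c (116%), Smtnl1 (114%), Gm13580 (114%) and Fetub, a liver cystatin (114%). Gpx2 had 8.82 to 21.8 FPKM over the 12 samples, with a mean of 16.8 and 9.60 in mES, and Pgc had 5.62 to 18.3 with 6.55 in mES. At D12 with NanogBiD the means of these 2 genes were 1.91 and 0.48 FPKM in the gene table. LOC108167978, listed at 0 at D12, had 0 to 6.71 FPKM, and 11 of 12 samples were at 1 or more.

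The lowest shares were those of Mir1199 (7.40%), Rbakdn (14.7%), the arginine deiminase gene Padi2 (23.9%), Tafa4 (24.1%), Cldn7 (30.6%), Hist1h4d and H4c4 (30.8%) and Hoxb13 (40.3%). Mir1199 lies inside Misp3, and mES had 29.5 FPKM for it in the gene table and 1.09 in the transcript table, so its reads cannot be told apart from those of Misp3 and its share is uncertain. The next lowest share was that of Rbakdn. Cldn7 had 0.26 to 3.99 FPKM, with 3 samples at 1 or more, against 8.13 in mES. Rbakdn had 0 to 1.32 against 5.51. Cyp2s1 was even among the samples, from 2.02 to 4.48 FPKM, and all 12 lay below the 18.2 of mES. Misp3, with 2.23 to 6.76 against 26.5, showed the same order. These 2 genes stood at less than 50% of the mES level on the log scale in iPSCs as at D12, where their shares were 26.2% and 45.8%.

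No gene of the 12456 tested was called between the iPSCs of the combinations by limma with line as covariate (0% of all genes), while 5 of the 88 members tested and 201 of all genes had an unadjusted p under 0.05. Between the lines 4 members were higher in iPSC2 (0.377% of all genes tested) and 0 were lower (0.506%). Line is the word used here for iPSC1 and iPSC2, whose meaning the labels do not state. By the file headers iPSC1 was at passage 5 or 6 and iPSC2 at passage 2, and the effects of line and passage cannot be told apart. Khdc3 had 1.81 to 10.4 FPKM in the 7 iPSC1 samples and 16.2 to 27.5 in the 5 iPSC2 samples, without overlap (log2 difference 1.81 ± 0.25, limma, adjusted p = 0.0029). Fam25c had 10.4 to 33.0 FPKM in iPSC1 and 40.5 to 139 in iPSC2, also without overlap (1.71 ± 0.33, limma, adjusted p = 0.015). Slc30a2 had 2.37 to 8.04 and 8.14 to 15.4 (1.30 ± 0.25, limma, adjusted p = 0.015). Krt42, a keratin gene, overlapped between the lines (1.10 ± 0.27, limma, adjusted p = 0.039). Its call was lost when samples 1 and 1-2 of WT iPSC1, which share the number 1 in their labels, were averaged (limma, adjusted p = 0.054). Without WT iPSC1 sample 2 the count was 4 higher and 3 lower.

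The Pramel, Xlr and Cd3 members differed widely among the iPSC samples. Pramel6 had 42.7 and 31.7 FPKM in BiD iPSC1 samples 8 and 9, 21.7, 34.7 and 35.8 in WT iPSC1 samples 1, 1-2 and 3, and 32.3 in WT iPSC2 sample 5. It had 4.18 in BiD iPSC1 sample 4, 1.15, 7.35 and 1.04 in BiD iPSC2 samples 1, 2 and 3, 0.45 in WT iPSC2 sample 6 and 0.22 in WT iPSC1 sample 2. mES had 8.03 FPKM, so 6 samples stood above it and 6 below. The same 6 samples held the 6 highest values of 11 of the 89 members (12.4%), a set chosen after the values were seen, and of 5.83% of the 12456 genes tested. They were Pramel6, Pramel7, Cd3g, Cd3e, Xlr4a, Gm364, Gm4984, Hoxc13, M1ap, Smtnl1 and C130074G19Rik. Pramel7 ran from 0.33 to 41.6 FPKM with 4.00 in mES, Cd3g from 0 to 50.3 with 7.24 in mES, and Gm364, an X-linked gene, from 0.54 to 49.6 with 9.23 in mES. Xlr4a was at 0 in WT iPSC1 sample 2 and at 10.5 in BiD iPSC1 sample 8. Hsf2bp was steadier, from 12.96 to 36.6 FPKM with 36.4 in mES.

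**Figure D5:**
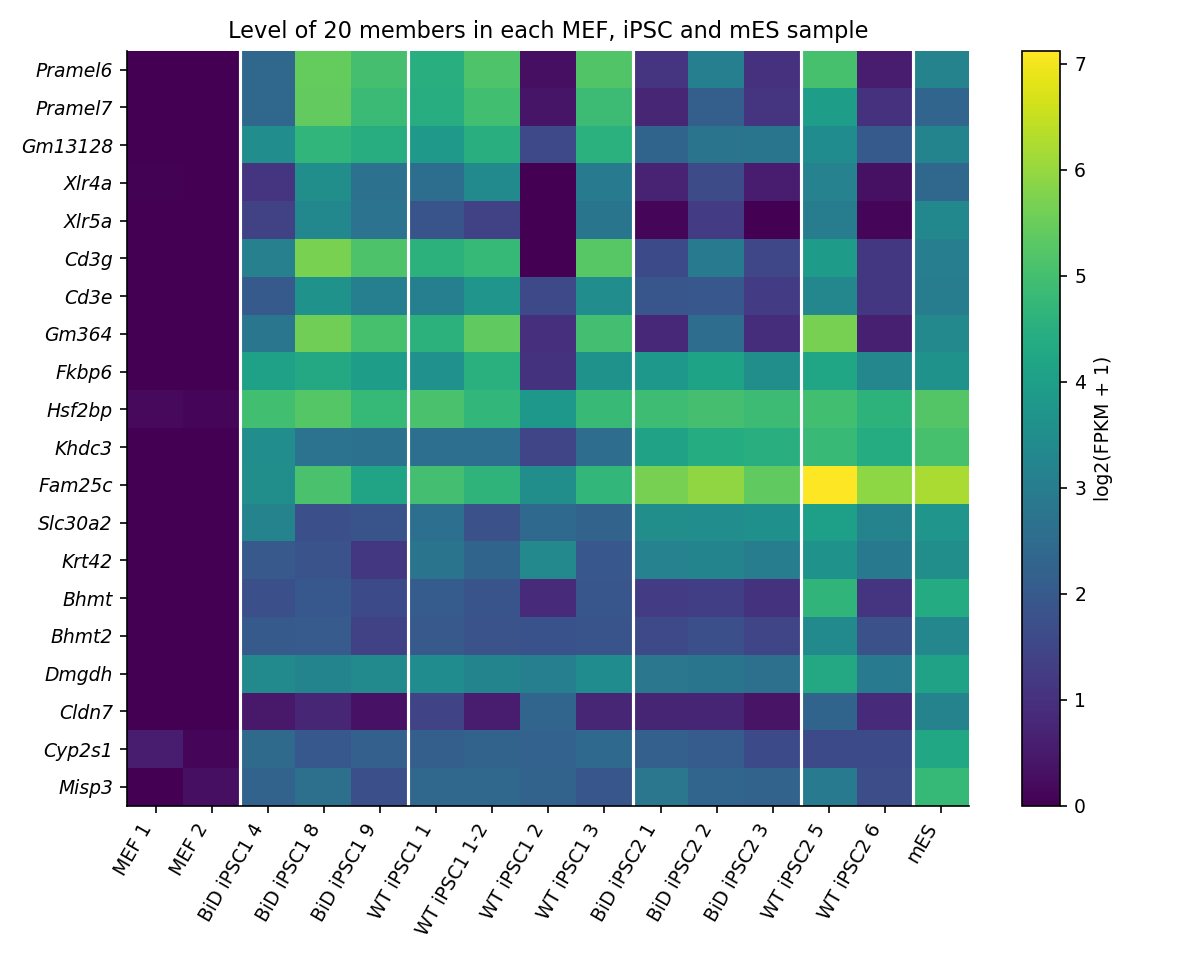
Level (colour, log2(FPKM + 1)) of 20 members in each MEF, iPSC and mES sample of the transcript table, with white lines between groups. Pramel6, Pramel7, Cd3g and Gm364 are dark in WT iPSC1 sample 2, and Bhmt and Fam25c are brightest in WT iPSC2 sample 5.

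Individual samples stood apart across the members. WT iPSC1 sample 2 had the lowest value of the 12 for 39 of 89 members (43.8%), against 16.6% of all genes tested, and 68 members at 1 FPKM or more. Fkbp6 had 1.06 FPKM there and 8.85 to 21.8 elsewhere, and Nckap1l, a WAVE complex subunit of blood cells, had its lowest value, 1.31, there. Mymx in contrast had its highest value, 57.6, in that sample. WT iPSC2 sample 5 had the highest value for 34 members (38.2%), against 16.1% of all genes, and a median share of 92.1% of the mES level. The neighbours Bhmt, Bhmt2 and Dmgdh had 24.1, 9.58 and 18.9 FPKM in this sample, with 19.9, 8.92 and 16.3 in mES, so all 3 stood above mES there and below it in the other 11. There Bhmt had 0.81 to 3.23, Bhmt2 1.65 to 3.15 and Dmgdh 5.24 to 10.1 FPKM. BiD iPSC1 sample 9 and WT iPSC1 sample 3 had 1420 and 448 FPKM of summed fibroblast markers, against 5.42 to 159 in the other 10, and their part in the member values was not tested. With any 1 iPSC sample left out, 83 to 86 members were on.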

How the data were processed

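Reads had been trimmed (Trim Galore 0.6.4), aligned to mm10 (HISAT2 2.2.1) and quantified (StringTie 2.2.1) by the authors. The deposited values are FPKM, per gene in the time-course table (34 samples) and per transcript in the iPSC table, which was summed by symbol here. The annotation and whether counting used strand are not given in the sources used here, so overlapping genes are uncertain. The members and the gene lists were chosen with earlier results of these data known.

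log2(FPKM + 1) was fitted with limma 3.58.1 (variance trend, two-sided tests, R 4.3.3) over all 31 time-course libraries, or the 12 iPSC samples with combination and line as terms. Genes reaching 1 FPKM in 2 or more samples were tested. A call needed a log2 difference of 1 or more and p under 0.05 after Benjamini-Hochberg adjustment over all genes tested. Values of the 2 tables were compared as shares of the mES level within each table. A share is log2(FPKM + 1) over that of mES, and it is for 1 mES library. Relative depth came from steps between low values, of which 94.8% were within 0.1 of a whole multiple over 7075 genes. Depth of the iPSC samples is unknown. The fit was checked on simulated data. Genes named were the members highest in mES, lowest at D12, highest and lowest in iPSCs, up to 5 called per comparison and direction, members of the lists, those at the threshold and neighbours within 200 kb, with others named after their values were seen. Alternatives changed the pseudocount, filter, scaling, fold limit, libraries, replicate block and thresholds of the rule. The fit on libraries of D0 to D7 alone was chosen after seeing the data.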

Additional observations from a re-analysis of the deposited data

Results flagged for a closer look

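Among 116 groups of 6 iPSC samples tested for a sample apart from the rest (the gap to the nearest sample over the whole range, against Dixon's critical value), 11 (9.5%) held one. The chance rate of 1 in 20 holds only for independent, normally distributed values. These were FPKM values of samples from both lines, and 7 of the 11 were the same sample. Nothing is read from the count. Of the WT iPSC samples, iPSC2 sample 5 stood apart for 7 members. Bhmt had 24.1 FPKM there and 3.23 in the next highest sample, Bhmt2 had 9.58 and 2.97, and Dmgdh had 18.9 and 10.1. Tlx2, a homeobox gene, had 15.0 FPKM and 5.56 in the next sample, Hoxb13 had 4.17 and 1.52, Lpar5 had 11.9 and 5.33, and Pianp had 6.34 and 2.01. Rbakdn had 1.32 FPKM in WT iPSC1 sample 1 and 0.40 in the next.

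Summed fibroblast markers were 1420 FPKM in BiD iPSC1 sample 9, with 128 in the next BiD iPSC sample, and 448 in WT iPSC1 sample 3, with 159 in the next WT iPSC sample. Summed pluripotent markers were 6038 FPKM in WT iPSC1 sample 2 and 4354 in the next. Unlike the sums at D10 and D12, these include Pou5f1 and Nanog, whose rows can take in retroviral copies, so nothing is read from them about the state of the cells. In this sample 39 of 89 members had their lowest value.

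The change from D0 differed between the combinations, by the interaction term of the limma fit, for 25 members at D10, all with a higher signed change in NanogBiD (14.7% of all genes tested were called in that direction). At D7 it differed for 13 members, 12 of them with a higher signed change in NanogBiD (5.20% of all genes) and 1, Lpar5, with a lower one (4.88%). Many members passed the filter through late NanogBiD libraries, so nothing is read from these counts. A higher signed change can also be a lower level with NanogWT. The mean of Palm3 went from 0.705 to 0.760 FPKM with NanogBiD from D0 to D7 and from 1.56 to 0.07 with NanogWT. The mean of Hist1h4d went from 0.417 to 0.826 FPKM with NanogBiD from D0 to D10 and from 1.59 to 0.390 with NanogWT, and H4c4 is the same locus. Galnt6 went from 0.656 to 1.32 FPKM with NanogBiD and from 0.815 to 0.218 with NanogWT. These members were named after their values were seen. Depth differed between the combinations at D10, and its part was not tested.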

How the results depend on the processing

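The count of members called depended on the scale and the fold limit. With a pseudocount of 0.1 it was 60 for D10 against D0 of NanogBiD (30 in the report), 42 for D12 against D0 of NanogWT (8), and 14, 25 and 43 between the combinations at D5, D7 and D10 (5, 12 and 20). Rescaled to TPM the counts were 64, 25, 15, 23 and 50, and without the fold limit 58, 25, 16, 24 and 50, and 8 between the iPSC lines (4). Quantile normalization gave 17 for D10 against D0, and it moved the median of all genes from 0.31 to 0.01 there and from 0.19 to -0.05 for NanogWT. Leaving out 1 sample gave 22 to 37, 7 to 10, 4 to 9, 12 to 14 and 8 to 32, 3 to 7 between iPSC lines and 0 between the iPSCs of the combinations. The members on in iPSCs were 84 at a mean of 1 FPKM, 41 at 5 FPKM and 54 at 1 FPKM in all 12. The cause was not tested.

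With the replicate block the counts were 30, 8, 5, 12 and 20, as without it. Labels share only numbers, and deviations of same-numbered libraries correlated at -0.04 (D5), 0.40 (D7) and 0.12 (D10). With libraries of D0 to D7 alone, chosen after seeing the data, 6 members were called at D5 and 12 at D7.

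Of the 100 members 32 were kept with the rule applied to TPM and 31 with mES at 10 FPKM or more. These 31 are all the members that reach 10 FPKM in mES. A higher limit only removes candidates and could not drop any of them, so that count tests nothing. Of 120 alternative values, 95 stayed within 1.5 times and 25 did not. For 34 results of named genes, 391 of 416 alternatives kept the call, 25 lost it and 0 reversed, 12 of the losses being Krt42 between iPSC lines. One mES library sets every share, and low FPKM values carry few reads.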
